A study of Mus musculus with 18 samples.

Results

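Eosinophils stimulated with IFN-γ and E. coli in the presence of apoptotic cells (IFN-γ + E. coli + ACs, 3 libraries) were compared with eosinophils that had received apoptotic cells alone (ACs alone, 3 libraries), to ask which transcripts differ between a Type 1 inflammatory setting and the apoptotic cells by themselves. Transcripts were taken into the comparison when their mean normalized count over these 6 libraries, of 18 in the series, was at least 10. Of the 54446 genes of the deposited table, 19948 had a value above 0 in at least 1 of the 6 libraries and 10185 were kept by this rule, 9455 of them protein coding. At the edge of the rule, Cebpzos was kept with a mean of 10.007 and Sema6b was left out with a mean of 9.995. All libraries came from eosinophils of Il5Tg mice on C57BL/6, which carry an Il5 transgene, washed from the peritoneal cavity and depleted of Thy1.2- and B220-bearing cells. As apoptotic cells, wild-type thymocytes treated with dexamethasone were used, added to both groups at 5 per eosinophil for 18 h, after which eosinophils were purified again with anti-Siglec-F beads. The ages of the eosinophil donors, the doses of IFN-γ and E. coli and the interval between them are not given in the sources used here. Both groups held apoptotic cells, so the comparison measures what the combined stimulus adds and not the effect of the apoptotic cells. The study describes its replicates as biological, and nothing in the labels says which mice or cultures each came from, so p-values measure the spread between these samples. IFN-γ + ACs and E. coli + ACs (3 libraries each, same experiment) serve as reference points, and every comparison with the combined stimulus shares its 3 libraries.

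IFN-γ binds a receptor coupled to Janus kinases, whose STAT factors bind the gamma-activated sequence (GAS) in promoters and switch on IRF1 and other interferon regulatory factors. These in turn act on the interferon-stimulated response element (ISRE), and the programme includes guanylate-binding proteins, immunity-related GTPases, antigen-processing proteins and the CXCR3-ligand chemokines. E. coli is sensed through its lipopolysaccharide by Toll-like receptor 4 and CD14, which lead to NF-κB and to cytokines such as IL-1, TNF and IL-6. In macrophages, the pair of stimuli is the classic inducer of the inducible nitric oxide synthase Nos2 and of a shift towards glycolysis. Eosinophils are granulocytes shaped by IL-5 and known for type 2 immunity, and they carry receptors for both stimuli.

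Promoters of 3 genes that rose are shown because they place the named elements of both arms within 1 window, and that of Bnip3 because it holds repeats of the core of the hypoxia response element, which was searched after the values of low-oxygen genes had been seen. Each line gives the 250 bases before the start site from RefSeq on GRCm38.p6, read 5′ to 3′ on the strand of the gene, with matches in capitals. The motifs were GAS (TTCNNNGAA), the ISRE core (GAAANNGAA), the NF-κB consensus and the hypoxia core (ACGTG or GCGTG), each sought on both strands, and offsets count bases before the start site. In the promoter of the guanylate-binding protein Gbp5, chr3:142496684-142496933 (+), GAS matches begin at -245 and -52, an ISRE core at -164 and an NF-κB match at -77. In that of the transcription factor Irf1, chr11:53769764-53770013 (+), 1 of 2 promoters listed for the gene, a GAS match begins at -90, a hypoxia core at -32 and an NF-κB match at -13. In that of the chemokine Cxcl10, chr5:92348890-92349139 (-), a hypoxia core begins at -222, an ISRE core at -213 and NF-κB matches at -159 and -103. In that of Bnip3, chr7:138909507-138909756 (-), hypoxia cores begin at -117, -108, -107, -99 and -35, of which those at -108 and -107 overlap.
Gbp5: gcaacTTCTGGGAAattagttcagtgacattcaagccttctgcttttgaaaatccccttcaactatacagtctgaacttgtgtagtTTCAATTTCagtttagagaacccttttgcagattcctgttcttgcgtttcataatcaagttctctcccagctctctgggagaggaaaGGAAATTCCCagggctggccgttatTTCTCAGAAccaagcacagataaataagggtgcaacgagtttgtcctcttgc
Irf1: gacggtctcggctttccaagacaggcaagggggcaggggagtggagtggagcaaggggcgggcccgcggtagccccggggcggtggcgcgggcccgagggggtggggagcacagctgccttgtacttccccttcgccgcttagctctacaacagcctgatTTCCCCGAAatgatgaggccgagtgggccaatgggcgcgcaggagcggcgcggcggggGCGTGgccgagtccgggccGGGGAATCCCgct
Cxcl10: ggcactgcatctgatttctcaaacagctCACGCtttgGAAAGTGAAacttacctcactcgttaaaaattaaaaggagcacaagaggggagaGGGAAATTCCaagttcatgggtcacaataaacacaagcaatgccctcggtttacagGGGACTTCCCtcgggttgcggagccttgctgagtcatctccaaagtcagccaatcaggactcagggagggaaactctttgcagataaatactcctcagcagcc
Bnip3: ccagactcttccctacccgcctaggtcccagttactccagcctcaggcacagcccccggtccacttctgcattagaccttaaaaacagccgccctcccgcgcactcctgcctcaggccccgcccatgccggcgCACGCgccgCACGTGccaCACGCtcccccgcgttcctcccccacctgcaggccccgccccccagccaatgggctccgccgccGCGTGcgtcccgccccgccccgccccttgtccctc

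A window from 250 bases before to 50 after the start site was available for 7900 of the 10185 genes, with 10070 promoters. Among transcripts higher with the combined stimulus at least 4-fold, GAS was found in 12.4% of 194 promoters, the ISRE core in 13.4% and the NF-κB consensus in 11.3%. Over all promoters of tested genes the shares were 6.73%, 7.69% and 5.37%, and over all 32851 promoters listed they were 8.3%, 8.56% and 4.51%. The shares of these 3 motifs were higher in the strongly raised set than in either background, while for all transcripts called higher they were 7.18%, 9.21% and 7.05% and for those called lower 6.36%, 7.45% and 4.7%. The hypoxia core, being short, was in 62.3% of promoters of tested genes, in 43.8% of all promoters, and in 26 of the 33 promoters of the glycolysis list (78.8%). These 33 promoters belong to 23 genes, and the list was drawn up with known low-oxygen genes such as Egln3 and Bnip3 in it. The share of the hypoxia core was 58.8% in the strongly raised set, under that of all tested genes, 63.5% among all transcripts called higher and 59.4% among those called lower. Of the 5 promoters of guanylate-binding proteins 4 held an ISRE core and 2 a GAS, and of the 6 of immunity-related GTPases 4 and 3 did. These matches are letters in a window, and no test was made on them.

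Reads counted on genes ranged from 4234312 to 4844424 in the ACs libraries and from 3294760 to 3733809 in the combined libraries, so 3 reads stood for 2.44 to 2.82 and for 3.66 to 4.28 normalized counts. Genes above 0 numbered 15508 to 16118 and 13582 to 14895. The combined libraries differed more among themselves than those of other groups: the chi-square per degree of freedom over genes was 13.2 between replicates 2 and 3 and at most 8.51 between any other 2 replicates of a group. Replicate 2 of the combined stimulus stood apart for Socs1, Slfn2, Gm10800 and Gm26870, whose values are given below, and also for Bnip3l, at 1946 against 1122 and 1112, and the mitochondrial mt-Nd3, at 2558 against 5682 and 6683. The last 2 were picked after their values were seen. Bnip3l, called higher at a log2 fold change of 0.62, was at 0.36 without combined replicate 2 and at 0.57 without ACs replicate 3, both under the fold threshold, and mt-Nd3, not called at 0.55, was called at 0.97 without combined replicate 2. Leaving replicate 2 out gave 1602 calls higher and 1831 lower against ACs alone. Marker counts here stand beside the 14.6% of all transcripts tested that were called higher and the 17.3% called lower than with ACs alone. Of 10 eosinophil markers 8 were tested, with 1 higher and 2 lower, and their sum ranged from 17166 to 18558 with ACs alone and from 15776 to 18463 with the combined stimulus. Alox15, at means of 9408 and 8106 in these groups, is in this sum and in the macrophage sum. The granule transcript Epx was at 1.38 or less in all 6 libraries, while Siglecf and the eotaxin receptor Ccr3 were abundant in each. Markers of other cells were present: of 20 peritoneal macrophage markers 19 were tested, 2 higher and 9 lower, and their sum was 37972 to 47129 with ACs alone and 26770 to 29070 with the combined stimulus. Against IFN-γ + ACs 13 of these 19 were lower and none higher, with a median log2 difference of -1.32. Against E. coli + ACs 5 were lower and 1 was higher. Differences of the lists below from IFN-γ + ACs are to be read beside these counts, and the part of macrophages in them was not tested. Of 12 B cell markers 3 were tested and 2 were lower (Ighm and Igkc), with sums of 1256 to 1456 and of 277 to 342. The thymocyte sum was 428 to 541 and 221 to 380 with Arpp21 at 0 in all 6 libraries, and the sum of 8 NK cell markers was 1.88 to 9.79 and 9.77 to 13.8, with Ncr1, Klrb1c, Gzma, Prf1 and Eomes at 0 in all 6 libraries. Of the 2 mast cell markers tested, Hdc and Cpa3, both were higher, while Ms4a2 and Mrgprb2 were at 0 throughout. Cpa3 was low, at 3.25, 0 and 8.97 with ACs alone and at 12.8, 34.2 and 46.9 with the combined stimulus. Its log2 fold change of 3.04 was 2.13 without ACs replicate 2 and 3.79 without ACs replicate 3. Neutrophil markers summed to 2271 to 2581 and to 1787 to 2254, with 4 of 8 tested higher and 1 lower, and of the 3 dendritic cell markers tested Itgax was higher. In such bulk libraries, fewer cells of a type and less RNA per cell cannot be told apart.

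A change was called when limma's adjusted p was under 0.05 and the fold at least 1.5, on the scale log2(normalized count + 1), and fold changes below are followed, where shown, by ± their standard error (SE). With the combined stimulus, 1490 transcripts (14.6%) were higher than with ACs alone and 1765 (17.3%) were lower. Of these, 212 rose and 335 fell by at least 4-fold, and the median log2 fold change was 1.02 among the higher and -1.26 among the lower. The 3 and 3 libraries did not overlap for 4984 transcripts (48.9%), including 1455 of the higher and 1681 of the lower. Between groups of 3, an exact two-sided permutation test of 1 transcript cannot give a p below 0.1. Against IFN-γ + ACs, the combined stimulus had 613 transcripts higher (6.02%) and 850 lower (8.35%), and against E. coli + ACs 998 higher (9.8%) and 958 lower (9.41%). Over all transcripts tested the median log2 fold change was -0.05. After rescaling to a common upper quartile that median was -0.19 and the calls were 1156 higher and 2215 lower, so that the higher were 34.3% of the calls in place of 45.8%. Under that scaling the higher were 35% of the calls against IFN-γ + ACs in place of 41.9%, and 36.5% of those against E. coli + ACs in place of 51%, so the balance of directions depends on the scale. Over transcripts averaging 50 or more in the 6 libraries the calls were 1284 higher and 1000 lower.

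**Figure D1:**
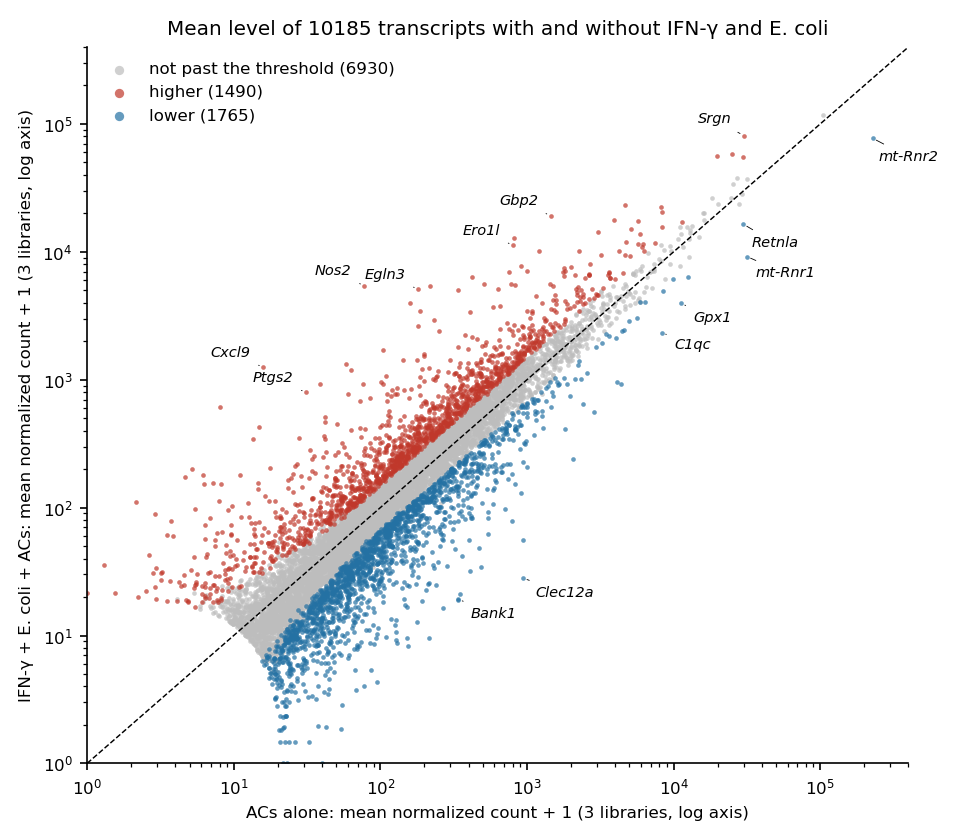
Mean normalized count plus 1 of the 10185 transcripts with ACs alone (horizontal, log axis) and with IFN-γ + E. coli + ACs (vertical, log axis), each a mean of 3 libraries, with the 1490 transcripts called higher and the 1765 called lower in colour. Points above the dashed diagonal are higher with the combined stimulus: Cxcl9 and Nos2 lie far above it, and Clec12a and Bank1 far below.

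The transcripts called higher took 18.3% to 18.5% of all normalized counts with ACs alone and 36.1% to 37.6% with the combined stimulus. In IFN-γ + ACs they took 29.3% to 30.6% and in E. coli + ACs 24.9% to 25.4%. The transcripts called lower went from 17.9% to 18.6% down to 6.09% to 7%, with 11.1% to 12.1% and 10.96% to 11.5% under the single stimuli. These shares were chosen with the same contrast and describe its size. Both single stimuli sat between the ACs libraries and the combined libraries for both sets.

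**Figure D2:**
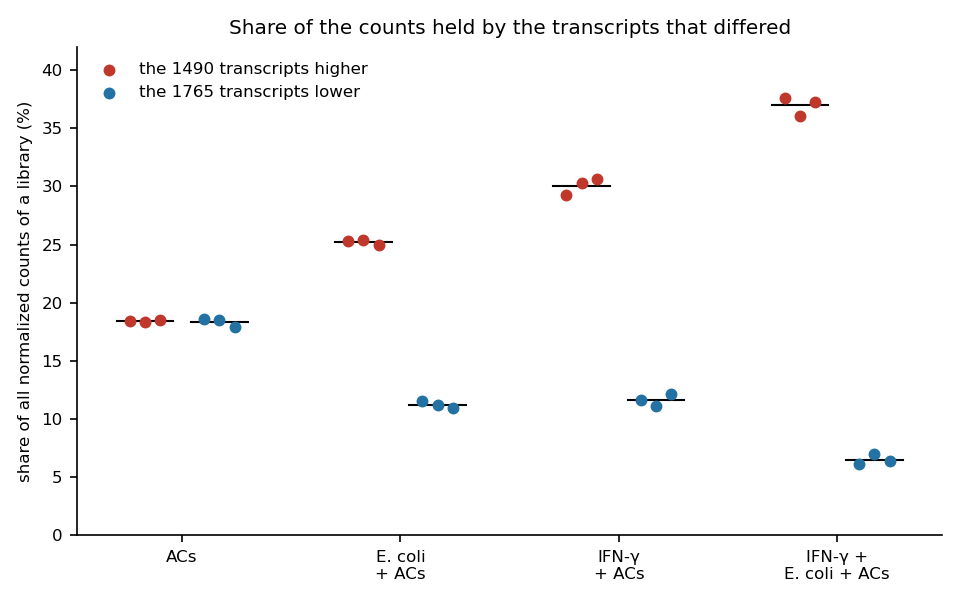
Share of all normalized counts of a library (%, vertical) held by the 1490 transcripts higher and the 1765 lower with IFN-γ + E. coli + ACs than with ACs alone, for the 3 libraries of each of the 4 groups (points) with their mean (line). The higher set rises from about 18% with ACs alone to 36.1% to 37.6%, and the lower set drops to 6.09% to 7%.

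The transcripts are described by lists of genes of known function. Counts refer to the members that reached the mean of 10, and a member can reach it through the group where it is high. The counts and medians thus describe the lists and are no test of them. For every list the counts stand beside the 14.6% of all transcripts that were higher and the 17.3% lower than with ACs alone. The shares were 6.02% and 8.35% against IFN-γ + ACs, and 9.8% and 9.41% against E. coli + ACs. Guanylate-binding proteins are large GTPases that IFN-γ induces and that act on intracellular vacuoles. Of 11 listed 9 were tested, all 9 were higher, and their median log2 fold change was 3.02. Gbp2 was at 1562, 1443 and 1339 normalized counts with ACs alone and at 19706, 18455 and 19437 with the combined stimulus. The groups were far apart, with a log2 fold change of 3.73 ± 0.1 (limma, adjusted p = 1.1e-14). Gbp4 rose by 4.21 ± 0.17, from 146, 219.6 and 192 to 2994, 3282 and 4033. Gbp5, whose promoter is printed above, was at 37.4, 12.2 and 31 and at 294, 370.1 and 391.8, with no overlap and a log2 fold change of 3.79 ± 0.3. The smallest rise in the family was that of Gbp9, at 1.36 ± 0.17 (limma, adjusted p = 4.9e-06). Against E. coli + ACs all 9 were higher as well, with a median of 2.60. Against IFN-γ + ACs only Gbp8 of the 9 was called, with a log2 difference of 1.16 (limma, adjusted p = 3.1e-04), and the median of the family was 0.36.

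The immunity-related GTPases, relatives of the former that also mark pathogen vacuoles, had 10 of 12 listed tested, and all 10 were higher, with a median log2 fold change of 2.28. Igtp was at 644, 649 and 621 with ACs alone and at 5237, 5054 and 5030.4 with the combined stimulus, a log2 fold change of 3.0 ± 0.1 (limma, adjusted p = 5.0e-14). Ifi47, the most abundant, stood at 4093, 3894 and 3818 and at 18661, 16018 and 18322. Iigp1 reached 1718, 2202 and 3291 from 264, 282 and 202, but its mean with IFN-γ + ACs was higher still, at 4519. It was 1 of 4 members below IFN-γ + ACs, beside F830016B08Rik, Gm4841 and Gm4951, whose log2 differences from IFN-γ + ACs were between -0.94 and -1.23. Members of this family have close copies in the genome. The methods describe counting of uniquely mapped reads only, so reads shared between copies could be left out.

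Of the 25 receptor, kinase, IRF and SOCS transcripts tested, 13 were higher and none lower, with a median of 0.60. Irf1, which relays the IFN-γ signal to the ISRE, was at 791, 823 and 736 with ACs alone and at 5615, 6394 and 4726 with the combined stimulus. Its values did not overlap, and the log2 fold change was 2.82 ± 0.12 (limma, adjusted p = 9.6e-13), with means of 4414 in IFN-γ + ACs and 690 in E. coli + ACs. Nlrc5, the activator of class I genes, rose from 179.7, 205 and 190 to 1289, 1173 and 1203. It was above IFN-γ + ACs too, by 0.87 on the log2 scale (limma, adjusted p = 2.4e-04). Stat3, a mediator of IL-6 and IL-10 signals, rose by 1.72 ± 0.11 and was called against both single stimuli. The feedback inhibitor Socs1 was at 2752, 2622 and 2721 and at 7020.5, 12787 and 4458, with replicate 2 of the combined group highest. Irf8 stood at 128, 246 and 283 against 111, 118 and 78.3, with a mean of 610 in IFN-γ + ACs. Against that group the log2 difference was -1.53 (limma, adjusted p = 2.2e-04).

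Transcripts of MHC class I presentation and the immunoproteasome were higher for 15 of 22 tested and lower for none, with a median of 0.99. The light chain B2m, among the 6 most abundant transcripts called higher, was at 27891, 35126 and 26675 with ACs alone and at 53222, 50027 and 63385 with the combined stimulus. The peptide transporter Tap1 rose by 1.58 ± 0.13, the tapasin relative Tapbpl by 1.94 ± 0.16, and the proteasome activator subunit Psme2 by 1.82 ± 0.15 (limma, adjusted p = 1.5e-08, 1.9e-08 and 1.4e-08). The catalytic subunits Psmb8, Psmb9 and Psmb10 rose by 1.5, 1.34 and 1.3. The heavy chain H2-K1 rose by 0.59 ± 0.11, from 11654, 11157 and 11216 to 18325, 16629 and 16278, and lay between 0.54 and 0.58, under the fold threshold, without ACs replicate 2 or 3 or combined replicate 1. Class I genes are near-identical copies of each other, so their shares of reads are uncertain.

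For MHC class II, which presents peptides from outside the cell, 4 of 10 transcripts tested were higher than with ACs alone, with a median of 0.48, and 9 were lower than with IFN-γ + ACs, with a median of -1.04. H2-Ab1, a class II chain, was at 468, 449.5 and 432 with ACs alone, at 1419.8, 1416 and 1232 with the combined stimulus and at a mean of 2605 with IFN-γ + ACs. The combined libraries lay between the other two groups, with log2 differences of 1.59 ± 0.13 from ACs alone and -0.94 from IFN-γ + ACs (limma, adjusted p = 1.0e-08 and 3.6e-05). Cd74, the invariant chain, gave 0.85 and -1.03, and H2-Aa 0.79 and -1.36. Class II molecules are also carried by macrophages and B cells, whose marker sums are lower in the combined libraries than with ACs alone. Against IFN-γ + ACs, 13 of 19 macrophage markers were lower and none higher, with a median of -1.32. The part of those cells was not tested.

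Among 28 antiviral transcripts, the shared targets of type I and type II interferons, 14 were higher and 2 lower, with a median of 0.53. The nuclease Samhd1, which depletes nucleotides, was at 5532, 5689 and 5964 with ACs alone and at 18805, 15519.7 and 18393 with the combined stimulus, a log2 fold change of 1.61 ± 0.11 (limma, adjusted p = 6.6e-10). Viperin, Rsad2, rose from 3429, 2914 and 3242 to 8269, 9380.2 and 10716, and Ifit2 by 1.77 ± 0.16. The nucleic acid sensor Zbp1 rose by 1.2 ± 0.1. Ifit3b went the other way, from 252, 150.2 and 186 to 67, 61.1 and 92.4, without overlap and with a log2 fold change of -1.39 ± 0.2. Oas1g was lower, with a log2 fold change of -1.18 ± 0.37, a call that was lost at -1.07 without ACs replicate 1, and both have close copies in the genome.

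Chemokines, the secreted signals that draw leukocytes, had 11 of 23 tested higher and 5 lower. The CXCR3 ligands Cxcl9 and Cxcl10, which attract activated T cells, were among the most raised, as was Cxcl11, which lies near them on chromosome 5. In the gene annotation Cxcl11 is a polymorphic pseudogene, so its transcript is not read here as a working ligand. Cxcl9, at chr5:92321347-92328079 (GRCm38), was at 13.8, 23.5 and 7.34 with ACs alone and at 1119, 1054 and 1581 with the combined stimulus. Its log2 fold change of 6.41 ± 0.31 (limma, adjusted p = 8.2e-12) was the largest over the 10185 transcripts, and its mean in IFN-γ + ACs was 2822, above all 3 combined libraries, and in E. coli + ACs it was 16.5. Cxcl10 rose from 207, 133 and 134 to 3557, 3486 and 4906, with means of 2848 and 2365 under IFN-γ and E. coli with ACs. Cxcl11 went from 5.69, 2.82 and 4.08 to 212, 169.8 and 221, values of a few reads in the ACs libraries, so that its log2 fold change of 5.31 ± 0.25 depends on the added count of 1.

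The neutrophil attractants Cxcl3 and Cxcl5 were also higher with the combined stimulus than with ACs alone. Cxcl3 was at 88.6, 127 and 83.2 and at 884, 809 and 1210, with means of 183 in IFN-γ + ACs and 602 in E. coli + ACs. It rose by 3.27 ± 0.21 over ACs alone and by 2.42 over IFN-γ + ACs (limma, adjusted p = 4.9e-10 and 3.5e-07). Cxcl5 reached 178, 119.7 and 163 from 23.6, 6.57 and 10.6. The macrophage inflammatory proteins Ccl3 and Ccl4 rose by 2.17 ± 0.18 and 1.48 ± 0.22, and Ccl4 was below its level in E. coli + ACs, with a log2 difference of -1.13. Ccl5, which attracts eosinophils and T cells, was at 2413, 2156 and 1782 and at 6168, 7404 and 6256. The 5 lower were Cxcl13, Cxcl14, Ccl6, Ccl12 and Pf4. Cxcl13, a B cell attractant, dropped from 4631, 4143 and 3641 to 809.7, 845 and 1211, without overlap and with a log2 fold change of -2.13 ± 0.15. Ccl6, 1 of the 6 most abundant transcripts called lower, went from 12516, 12095 and 12926 to 6626, 5964 and 6376. It had a mean of 15806 in E. coli + ACs, and its log2 fold change was -0.99 ± 0.11 (limma, adjusted p = 8.5e-07).

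**Figure D3:**
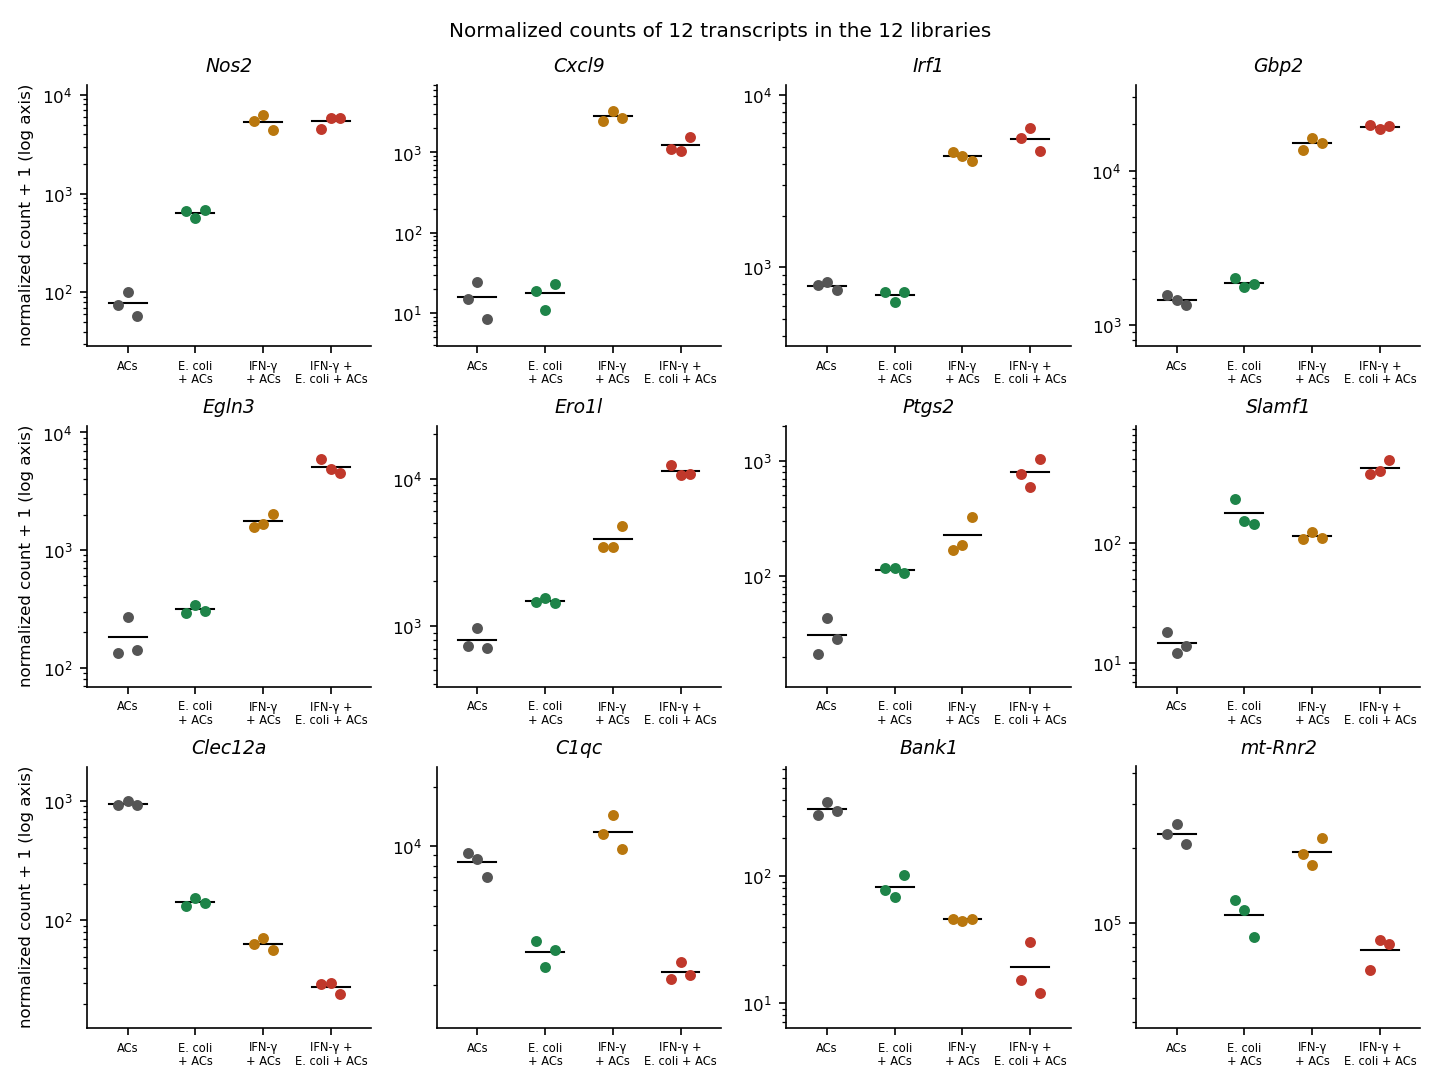
Normalized count plus 1 (log axis) of 12 transcripts in the 12 libraries of the 4 groups, each point a library and each line a group mean. Cxcl9, Irf1 and Gbp2 are high in both groups with IFN-γ, Egln3, Ero1l, Ptgs2 and Slamf1 are highest in the combined group, and Clec12a is lowest there, at 28.5, 29.3 and 23.4.

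Of 23 receptors and adaptors for bacterial products tested, 10 were higher and 2 lower, with a median of 0.34. Irak3, a brake on Toll-like receptor signals, had the largest rise in the list, from 251, 212 and 273 to 1351, 1044 and 1116, with a log2 fold change of 2.25 ± 0.13 (limma, adjusted p = 1.1e-10). Irak2, which prolongs that signal, rose by 1.67 ± 0.15. The intracellular peptidoglycan sensor Nod1 and its kinase Ripk2 rose by 1.79 ± 0.28 and 1.7 ± 0.27. For the lipopolysaccharide receptor Tlr4, at 55.3, 68.5 and 56.3 and at 89.8, 67.2 and 71.7, the log2 difference of 0.34 ± 0.25 was not called and the libraries overlapped. Its co-receptor Cd14 gave 0.32 ± 0.12, under the fold threshold. Tlr7, which senses single-stranded RNA, and Lbp, which carries lipopolysaccharide to CD14, were lower, with log2 fold changes of -1.28 ± 0.27 and -1.36 ± 0.32.

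Of 17 NF-κB subunits and inhibitors tested, 9 were higher and none lower, with a median of 0.83. Bcl3, a nuclear IκB protein, was at 30.9, 34.7 and 33.4 with ACs alone and at 248, 261 and 209.7 with the combined stimulus, with means of 78.2 and 141 under the single stimuli. The combined libraries were above both groups past the threshold, and the log2 fold change over ACs alone was 2.82 ± 0.18 (limma, adjusted p = 6.1e-10). Nfkbiz, a second nuclear IκB, stood at 47.2, 75.1 and 58.7 and at 264, 231 and 247. The deubiquitinase Tnfaip3 rose by 1.72 ± 0.17, and the subunit Rel by 1.12 ± 0.21, while Rela and Relb gave 0.36 ± 0.19 and 0.19 ± 0.23 and were not called.

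Of 23 cytokine transcripts tested 15 were higher and 2 lower, with a median of 1.36, and 12 were higher than in IFN-γ + ACs. The vascular growth factor Vegfa had the largest rise and is given with the glycolysis list below. Il1rn, the antagonist of the IL-1 receptor, was the most abundant, at 1592, 1396 and 1313 with ACs alone and at 5782, 4795 and 6299.7 with the combined stimulus. It did not overlap, with a log2 fold change of 1.97 ± 0.12 (limma, adjusted p = 1.8e-10). Il18bp, which neutralizes IL-18, went from 234, 246 and 207 to 1120.4, 924 and 977, with means of 1006 in IFN-γ + ACs and 178 in E. coli + ACs. Il27, the heterodimer partner of Ebi3, was at 26.8, 17.8 and 22.8 and at 184, 150.2 and 86.9. It rose by 2.54 ± 0.32, and Ebi3 by 1.35 ± 0.13. For Il19 and Il10 the order was different, since E. coli + ACs held means of 190.4 and 275, against 37.1, 33 and 19.3 and 72.7, 64.7 and 99.3 in the combined libraries. Both were higher than with ACs alone, by 3.44 ± 0.54 and 1.33 ± 0.28, and lower than with E. coli + ACs, with log2 differences of -2.64 and -1.78 (limma, adjusted p = 0.00157 and 1.2e-04). The 2 that were lower than with ACs alone were Il16, with a log2 fold change of -0.95 ± 0.16, and Tgfb2, with -1.84 ± 0.43.

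Enzymes of arginine, nitric oxide, itaconate and tryptophan were higher for 7 of 11 tested and lower for none, with a median of 2.64. Nos2, at chr11:78920787-78960254, was at 73.2, 99.5 and 57.1 with ACs alone, at 4509, 5899 and 5898 with the combined stimulus, at a mean of 5363 with IFN-γ + ACs and of 638 with E. coli + ACs. The log2 fold change over ACs alone was 6.16 ± 0.17 (limma, adjusted p = 1.1e-14), and the difference from IFN-γ + ACs was 0.02 with an SE of 0.17 (limma, adjusted p = 0.940). Acod1, which makes itaconate from a citric acid cycle intermediate, rose from 61, 60.1 and 51.4 to 1404, 1041 and 1518, by 4.48 ± 0.16. The arginine importer Slc7a2 rose by 2.64 ± 0.14, from 636, 589 and 539 to 3307, 3253 and 4589. The tryptophan-degrading Ido1 was at 2.44, 14.1 and 9.79 and at 104, 95.3 and 106, and Wars, the tryptophanyl-tRNA synthetase induced by IFN-γ, at 100, 115 and 93 and at 1100.5, 986 and 688. For Ido1 the log2 fold change was 3.64, and 3.01 without ACs replicate 1. Arg1, which competes with Nos2 for arginine, had a log2 difference of 0.54 ± 0.15 from ACs alone, under the fold threshold, which it passed at 0.62 without combined replicate 1 or 2. It was lower than in IFN-γ + ACs, where its mean was 28168, with a log2 difference of -1.53 (limma, adjusted p = 9.7e-07).

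Transcripts of inflammasomes and cell death moved in both directions, with 11 of 27 higher and 4 lower and a median of 0.52. The sensor Nlrp3 was at 29.3, 25.3 and 28.5 with ACs alone and at 169.6, 152 and 201 with the combined stimulus, a log2 fold change of 2.6 ± 0.24 (limma, adjusted p = 6.6e-08). The proteases Casp1 and Casp4 rose by 1.91 ± 0.14 and 1.2 ± 0.17, the pore protein Gsdmd by 0.76 ± 0.11 and the necroptosis effector Mlkl by 1.02 ± 0.16. The inflammasome adaptor Pycard fell from 921, 874 and 756 to 403, 395 and 473. Among survival proteins, Mcl1 rose from 6294, 6253 and 5864 to 11883, 10465 and 10680.3, whereas Bcl2 fell from 215, 187 and 266 to 48.5, 50.1 and 34.5 and Bcl2a1a by 1.00 on the log2 scale. The p53-responsive Pmaip1 rose by 1.72 ± 0.17 and Bbc3 fell, with -1.02 ± 0.34. The call of Bbc3 was lost without ACs replicate 2 or 3 or combined replicate 3, at -0.92, -0.99 and -0.76.

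Glycolysis, which turns glucose into pyruvate and lactate, had 23 of 24 transcripts higher and none lower, and the median log2 fold change was 2.09, against -0.05 over all transcripts tested. All 23 were also higher than in E. coli + ACs, and 12 were higher and 1 lower than in IFN-γ + ACs. The glucose transporter Slc2a1 rose by 2.57 ± 0.19, from 97.6, 125 and 109 to 894, 539 and 593. The hexokinases Hk1, Hk2 and Hk3 rose by 1.49, 1.89 and 1.37, and the phosphofructokinase subunits Pfkl and Pfkp by 2.18 and 2.25. In later steps, Tpi1 was at 396, 489 and 345 and at 3953, 3874 and 2356. Pgk1 was at 1242, 1309 and 1067 and at 10834, 9821 and 9705, a log2 fold change of 3.07 ± 0.11 (limma, adjusted p = 9.7e-14). Pgam1, among the most abundant transcripts called higher, rose from 4789, 4839.7 and 4313 to 25596, 23632 and 21108, and Pkm from 9225, 7824 and 7590.4 to 26842, 21504 and 18362. Lactate dehydrogenase, Ldha, was at 1819.9, 1804 and 1712 and at 8450.3, 7284 and 6647, and the lactate exporter Slc16a3 at 606, 667 and 680.2 and at 3738, 4727 and 2788. Replicate 3 of the combined group was lowest for Aldoa, Tpi1, Gapdh and Gpi1, the last at 6323, 5889 and 3441 against 3511, 3238 and 3160.3 with ACs alone, so that its groups overlapped. Gpi1 lay between 0.45 and 0.58 on the log2 scale, under the fold threshold, without ACs replicate 3 or combined replicate 1 or 2. The list also holds HIF and some of its targets: Hif1a rose by 1.48 ± 0.14, from 622, 738 and 617 to 2038, 1463 and 2046, and the vascular growth factor Vegfa was at 66.7, 158 and 84 and at 1795, 1595 and 1769, a log2 fold change of 4.15 ± 0.24. The exception in the list was Pfkfb4, which was not called at -0.27 ± 0.32.

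Low oxygen is known to raise a set of genes through hypoxia-inducible factors (HIF). In a list of 22 assembled after the values were seen, 18 of 20 tested were higher and 1 was lower, with a median of 3.06. Egln3 and Bnip3 are in both lists. The share of the 22 in all counts was 0.115% to 0.133% with ACs alone, 0.642% to 0.747% with the combined stimulus, 0.342% to 0.403% with IFN-γ + ACs and 0.131% to 0.132% with E. coli + ACs. Egln3, at chr12:54178981-54203860, a prolyl hydroxylase that marks HIF for degradation, was at 132, 266 and 141 with ACs alone and at 5926, 4869 and 4541 with the combined stimulus. With means of 1759 and 312 under the single stimuli, it was above both, by 1.54 and 4.02 on the log2 scale (limma, adjusted p = 2.2e-05 and 2.7e-11). Ero1l, an oxidase of the endoplasmic reticulum, rose from 731, 961 and 709 to 12430.2, 10569 and 10821, and Bnip3, a mitophagy receptor whose promoter is printed above, from 347, 342 and 316 to 5820.2, 4738 and 4648. The cytokine Mif was at 228, 268 and 199 and at 3005, 3442 and 2421, and the prolyl hydroxylases P4ha1 and Egln1 rose by 3.25 ± 0.15 and 2.72 ± 0.16. The lipid droplet protein Hilpda rose by 3.01 ± 0.15 over ACs alone and stood at a mean of 2050.1 in IFN-γ + ACs. Cited2, an inhibitor of HIF, was the 1 that was lower, from 276, 312 and 319.7 to 98.4, 118 and 84.2.

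**Figure D4:**
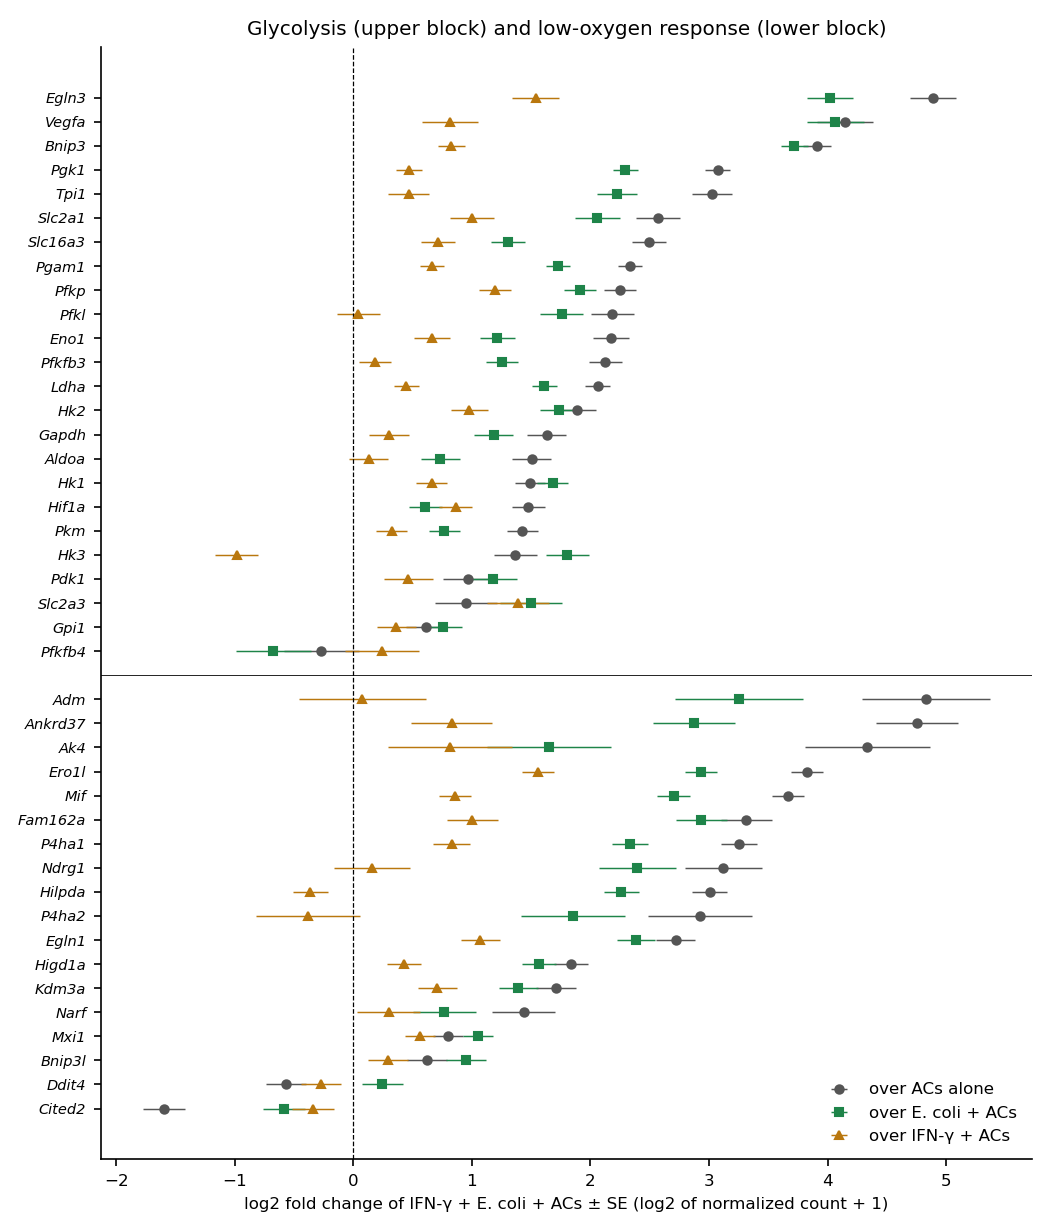
Log2 fold change ± SE of IFN-γ + E. coli + ACs over ACs alone, over IFN-γ + ACs and over E. coli + ACs for each transcript of the glycolysis list (upper block) and of the low-oxygen response (lower block). Points over ACs alone lie mostly to the right of 0, with Egln3 at 4.89 and Vegfa at 4.15, while points over IFN-γ + ACs lie closer to 0.

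Of 22 citric acid cycle transcripts tested none were higher and 4 were lower (Idh1, Idh2, Idh3a and Suclg1), with a median of -0.18. Over all transcripts tested 14.6% were higher and 17.3% were lower. The call of Suclg1 was lost without combined replicate 3, at -0.58. Idh1, the cytosolic isocitrate dehydrogenase, was at 335, 429.8 and 371 and at 139.7, 181 and 232, a log2 fold change of -1.06 ± 0.18 (limma, adjusted p = 9.9e-05). The mitochondrial Idh2 went from 50.4, 60.1 and 49.8 to 14.2, 7.33 and 5.52, and both were without overlap. Of 73 nuclear transcripts of the respiratory chain, a list chosen after the values were seen, 4 were higher and 4 lower. The 2 mitochondrial ribosomal RNAs were lower, mt-Rnr2 from 227159.6, 248827 and 207168 to 64638, 85379.6 and 82208 and mt-Rnr1 with a log2 fold change of -1.78 ± 0.14. Their share of all counts was 6.23% to 6.97% with ACs alone and 1.55% to 2.09% with the combined stimulus. The mitochondrial messenger mt-Co2 had a log2 difference of 0.52 ± 0.13, under the fold threshold, which it passed at 0.62 without ACs replicate 2 and at 0.63 without combined replicate 2.

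Of 21 NADPH oxidase and antioxidant transcripts 14 were higher and 1 was lower, with a median of 1.05. Slc7a11, the cystine importer, was at 143, 153 and 129.7 with ACs alone and at 1140.4, 1305 and 1813 with the combined stimulus, a log2 fold change of 3.29 ± 0.15 (limma, adjusted p = 4.2e-12). The glutathione synthesis subunits Gclm and Gclc rose by 3.0 ± 0.12 and 2.11 ± 0.14, thioredoxin reductase Txnrd1 by 2.39 ± 0.17, Srxn1 by 2.31 ± 0.13 and Nqo1 by 2.11 ± 0.18. Prdx1 went from 847, 1087 and 803 to 7219, 6806 and 9026, with a mean of 12932 in IFN-γ + ACs. The oxidase subunits Cybb and Ncf1, which make superoxide, rose by 0.69 ± 0.1 and 0.88 ± 0.11. Gpx1, the abundant glutathione peroxidase, was the 1 that was lower, from 11327, 12033 and 10392 to 3641, 4846 and 3379 (limma, adjusted p = 9.6e-09). In iron handling 5 of 13 were higher and 1 lower. The transferrin receptor Tfrc rose from 54.5, 55.4 and 40 to 523, 419 and 404, ferritin Fth1 from 27704, 26023 and 21689.6 to 53363, 57513 and 63389 and heme oxygenase Hmox1 by 1.98 ± 0.14. Ncoa4, which delivers ferritin for breakdown, was lower, with a log2 fold change of -0.6 ± 0.15, a call lost without ACs replicate 1 (-0.57) or combined replicate 2 (-0.54).

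Of 14 enzymes of leukotriene and prostaglandin synthesis 6 were higher and 1 was lower. Ptgs2, at chr1:150100031-150108227, the inducible cyclooxygenase, was at 20.3, 42.2 and 27.7 with ACs alone and at 761, 589 and 1036 with the combined stimulus. It was above IFN-γ + ACs and E. coli + ACs, whose means were 225 and 112, and its log2 fold change over ACs alone was 4.7 ± 0.27 (limma, adjusted p = 8.0e-11). Pla2g4a, which frees arachidonic acid, rose by 1.49 ± 0.12 and the prostaglandin E synthase Ptges by 1.08 ± 0.14. Pla2g7, which degrades platelet-activating factor, was among the most abundant transcripts called higher, at 19909, 19038 and 20847 and at 59484, 53962 and 54582. The lipoxygenases Alox5 and Alox15 gave -0.27 ± 0.12 and -0.22 ± 0.1 and were not called. Ptgis, the prostacyclin synthase, was lower, from 35, 33.8 and 36.7 to 0, 4.89 and 22.1, a log2 fold change of -2.81 ± 0.75 that was -1.63 without combined replicate 1 and -3.9 without combined replicate 3.

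Of 18 eosinophil surface receptors tested 4 were higher and 3 lower, beside 14.6% and 17.3% over all transcripts. Siglecf, the target of the beads used for purification, fell from 3169, 3175 and 3367 to 2019.9, 1728 and 2017, without overlap, with a log2 fold change of -0.76 ± 0.1 (limma, adjusted p = 1.0e-05). Ccr3, the eotaxin receptor, and Il5ra gave 0.45 ± 0.11 and -0.39 ± 0.16, both under the fold threshold. The common beta chain Csf2rb, which serves IL-3, IL-5 and GM-CSF, rose from 8482, 8787 and 7872 to 22249, 20739 and 18544, and its relative Csf2rb2 by 1.55 ± 0.1. The inhibitory receptor Cd300a and the SLAM receptor Cd244a were lower, with log2 fold changes of -1.23 ± 0.17 and -1.32 ± 0.18. Of the 4 granule protein transcripts tested only Ear2 was called, lower, at 0, 3.66 and 2.76 against 32.5, 25.3 and 21.2. Ear genes are near-identical copies, and the fit for Ear2 rests on few reads in the combined libraries.

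Transcription factors of eosinophils and granulocytes split, with 5 of 22 higher and 6 lower. Counts in this paragraph stand beside 14.6% higher and 17.3% lower over all transcripts. Gata1, needed for eosinophil development, rose from 858, 833 and 808 to 1369.9, 1336 and 1142, a log2 fold change of 0.62 ± 0.14 (limma, adjusted p = 0.00222) that was 0.57, under the fold threshold, without combined replicate 1. Cebpb, an inflammatory factor, rose by 1.0 ± 0.1, and Nfil3 by 0.88 ± 0.14. Cebpa, Id1, Id2 and Klf2 were lower, with log2 fold changes of -1.93, -1.3, -0.88 and -1.64. Among 17 type 2 transcripts, 3 were higher and 6 lower. The resistin-like Retnla, 1 of the 6 most abundant transcripts called lower, was at 29367, 33575 and 26657 and at 16702, 12372 and 20386, with a mean of 30353 in IFN-γ + ACs and 27929 in E. coli + ACs. Its log2 fold change was -0.88 ± 0.16. The mannose receptor Mrc1 fell from 97.6, 134 and 94.6 to 2.85, 9.77 and 13.8, and the chain Il13ra1 of the IL-13 receptor rose from 30.9, 37.5 and 31 to 222, 177 and 174. Mrc1 is a macrophage transcript too, and the macrophage marker sums given above were lower in the combined libraries. The part of macrophages was not tested.

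C-type lectins and scavenger receptors held the largest fall among transcripts that averaged 50 or more with ACs alone. Of 20 tested 5 were higher and 8 lower, and against IFN-γ + ACs 2 and 11. Over all transcripts the shares were 14.6% and 17.3%, and 6.02% and 8.35% against IFN-γ + ACs. Clec12a, at chr6:129342691-129365303, an inhibitory receptor for uric acid crystals of dead cells, was at 908, 997 and 914 with ACs alone and at 28.5, 29.3 and 23.4 with the combined stimulus. The groups were far apart, the means under the single stimuli were 62.4 and 141, and the log2 fold change was -5.07 ± 0.17 (limma, adjusted p = 5.0e-14). Cd36, which binds oxidized lipids and apoptotic cells, fell from 167, 134 and 132 to 11.4, 40.3 and 23.4. Cd163, the hemoglobin scavenger receptor, went from 45.5, 72.3 and 40 to 0, 1.22 and 1.38 and Clec10a from 71.6, 97.6 and 59.5 to 0, 4.89 and 4.14, where no combined library exceeded 4.89, so that the fitted size of these falls depends on the added count of 1. Clec4a1 and Clec4a3 fell by 2.12 and 2.74 on the log2 scale. In the other direction, Clec4e, a sensor of mycobacterial cord factor, rose from 530.2, 361 and 378 to 2108, 1919 and 2484, Clec4n by 2.42 ± 0.17 and the oxidized lipoprotein receptor Olr1 by 2.33 ± 0.31.

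Counts in this paragraph stand beside 14.6% higher and 17.3% lower over all transcripts, and beside 6.02% and 8.35% against IFN-γ + ACs. Among 23 transcripts of apoptotic cell recognition and engulfment, 5 were higher and 8 lower, with a median of -0.43. None were higher than in IFN-γ + ACs and 10 were lower. The complement bridge C1qc was at 9299, 8681 and 6977 with ACs alone and at 2138, 2615 and 2259 with the combined stimulus, with means of 11869.6 and 2930 under IFN-γ and E. coli with ACs. The log2 fold change was -1.83 ± 0.15 (limma, adjusted p = 1.4e-08). C1qa and C1qb, the other chains, fell too, with log2 fold changes of -2.49 ± 0.24 and -1.19 ± 0.19. Itgb3, whose protein binds the bridge Mfge8, and Mfge8 itself fell by 1.38 and 1.64 on the log2 scale, and Pros1, the ligand of TAM receptors, by 1.69. The TAM receptor Mertk was higher, at 386, 314 and 459 against 294, 220.5 and 245, and lower than in IFN-γ + ACs, with a log2 difference of -1.2. Its call against ACs alone, at 0.6, was lost without ACs replicate 2 or 3 or combined replicate 3, at 0.51, 0.58 and 0.47. The cholesterol exporter Abca1 rose by 0.95 ± 0.16. In the lysosome list of 32, 4 were higher and 10 lower, and against IFN-γ + ACs 1 and 18. The protease Ctsl fell from 2558, 2605 and 2045 to 573, 559.5 and 791, and Gusb from 529, 495 and 453 to 95.5, 119.7 and 106. C1q genes, Mertk and Cd163 belong to the macrophage markers listed above, of which 19 were tested, with 2 higher and 9 lower. Gata6 was at 187, 118 and 123.2 and at 42.8, 24.4 and 41.4, and Vsig4 had a log2 fold change of -3.19 ± 0.24. Adgre1, like Mertk, was higher, at 1847, 1698 and 1874 with ACs alone and at 3103, 2717 and 3140 with the combined stimulus. Csf1r, Lyz2 and Apoe were among those not called. The part of macrophages in these values was not tested.

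**Figure D5:**
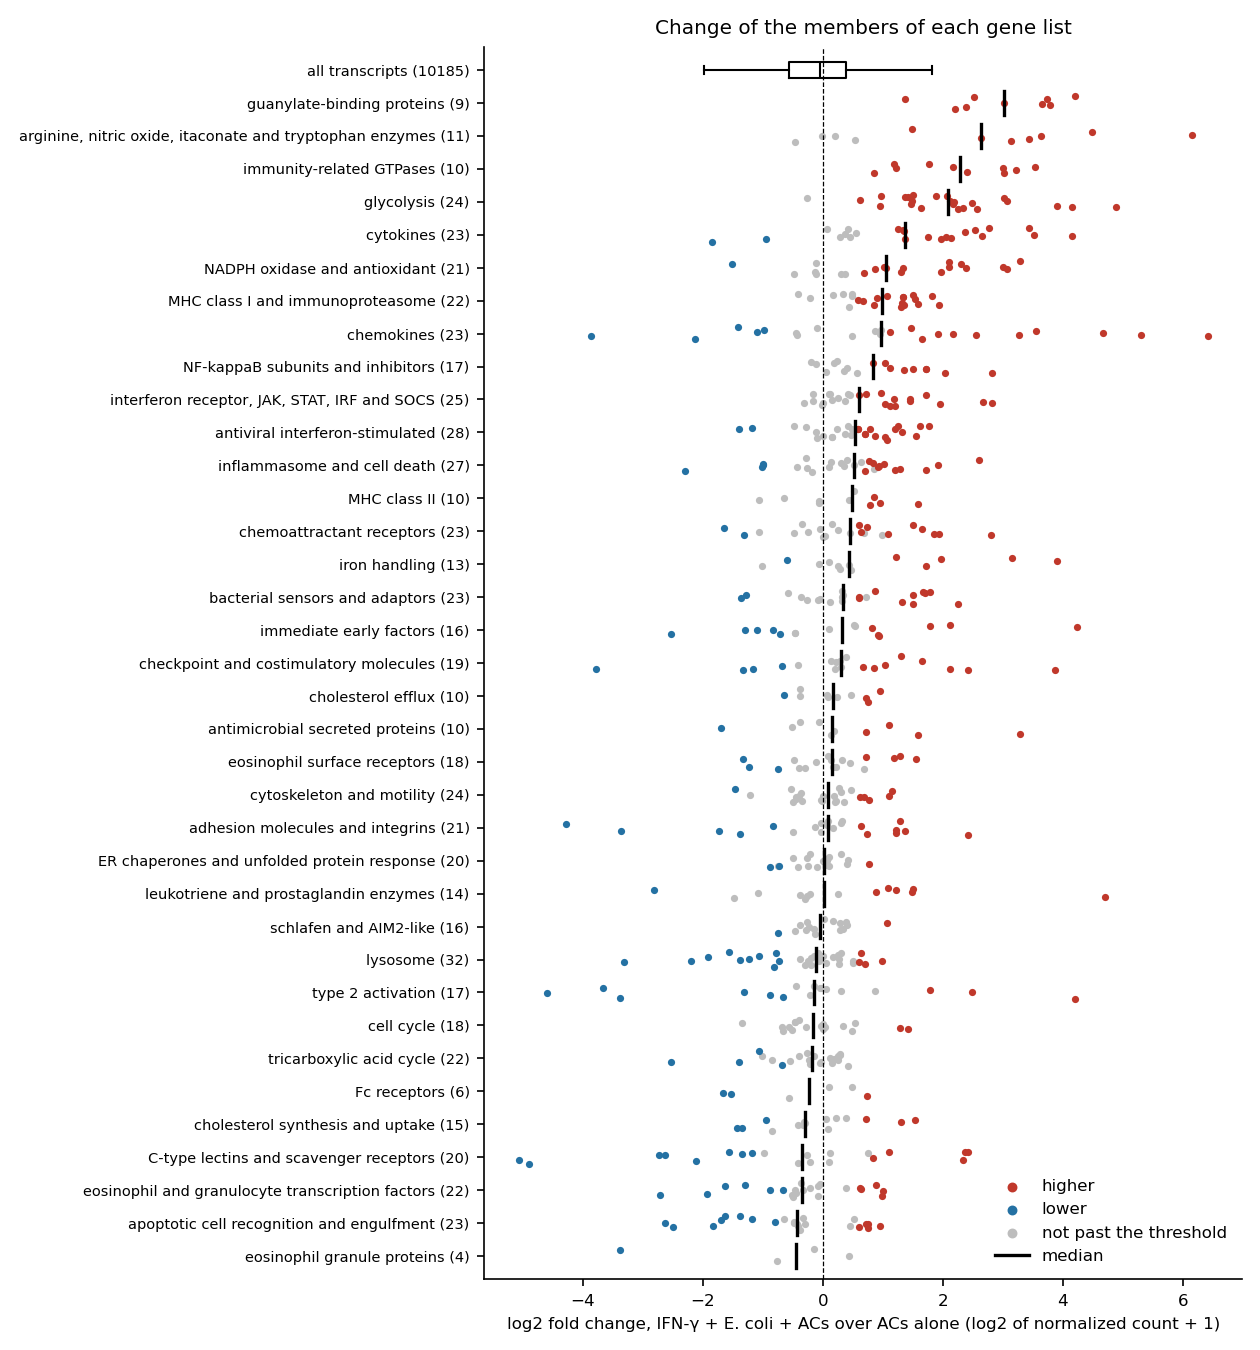
Log2 fold change of IFN-γ + E. coli + ACs over ACs alone (horizontal) for each tested member of the gene lists (points, coloured by call), with the list median as a line and the number tested in brackets. The medians of guanylate-binding proteins (3.02), arginine and nitric oxide enzymes (2.64), immunity-related GTPases (2.28) and glycolysis (2.09) stand to the right of the median over all transcripts.

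Of 19 checkpoint and costimulatory transcripts 8 were higher and 4 lower. The adhesion ligand Icam1 rose from 64.2, 49.7 and 51.4 to 298, 310.3 and 283, a log2 fold change of 2.42 ± 0.17 (limma, adjusted p = 2.8e-09), Slamf7 by 2.11 ± 0.23 and the TNF receptor Tnfrsf1b by 1.65 ± 0.13. Havcr2, which encodes TIM-3, fell from 53.7, 70.4 and 73.4 to 1.43, 4.89 and 6.9. Of 23 chemoattractant receptors 9 were higher and 2 lower. The atypical receptor Ccrl2 rose from 112, 119 and 127 to 815, 856 and 840.2, the platelet-activating factor receptor Ptafr from 1731, 1917 and 1718 to 6442, 6275 and 6689 and Cxcr2 by 1.94 ± 0.26. Of 21 adhesion molecules 7 were higher and 5 lower. Itgam, the alpha chain of Mac-1, rose from 6257, 5605 and 5867 to 13449, 12505 and 15711 and the hyaluronan receptor Cd44 by 1.28 ± 0.15, whereas Jaml and the collagen receptor chain Itga2 fell, with log2 fold changes of -4.28 ± 0.48 and -3.37 ± 0.4. Among 6 Fc receptor transcripts Fcgr3 was higher and Fcgr1 and Fcgrt were lower, Fcgr1 from 690.4, 548 and 590.5 to 188, 206 and 178.

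Immediate early factors were divided, with 6 of 16 higher and 5 lower. The stress factor Atf3 rose from 51.2, 73.2 and 62.8 to 1303, 942 and 1331, with a mean of 1586 in IFN-γ + ACs, and the AP-1 member Fosl1 by 2.12 ± 0.34. Egr1 fell from 494, 494 and 637 to 96.9, 97.7 and 81.4, Fos by 1.1 and Ier2 by 1.3 on the log2 scale (limma, adjusted p = 2.5e-07, 3.3e-06 and 6.1e-07). Of 10 secreted antimicrobial transcripts 4 were higher and 1 was lower. The acute-phase Saa3, the most abundant of them, was at 116403, 114633 and 81591 and at 112389, 117258 and 120479.6 with overlapping libraries and was not called, and Hp, haptoglobin, fell from 700.2, 741 and 619 to 178, 285 and 185. S100a8 rose by 1.58 ± 0.22 and, like Cxcr2, is on the list of neutrophil markers, whose sums are given above and whose part was not tested.

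In the remaining lists, counts are to be read against the 14.6% of all transcripts that were higher and the 17.3% that were lower than with ACs alone. Cholesterol synthesis and uptake had 3 of 15 higher and 3 lower, cholesterol efflux 3 of 10 and 1, the cell cycle 2 of 18 and 0, the cytoskeleton 5 of 24 and 1, and chaperones of the endoplasmic reticulum 1 of 20 and 2. The schlafen and AIM2-like genes had 1 of 16 higher and 1 lower against ACs alone, but 9 lower than IFN-γ + ACs and none higher. Among these, Ifi204 had a mean of 1129 in IFN-γ + ACs against 440.5, 474 and 755 in the combined libraries, a log2 difference of -1.06 (limma, adjusted p = 1.1e-04). Slfn2 was the 1 called lower against ACs alone, at 3604, 6659 and 1845 against 6227, 6047 and 5546, with replicate 2 of the combined group above the ACs libraries. This call was lost when any 1 of the 6 libraries other than combined replicate 2 was left out, with values from -0.28 to -0.79. It was also lost with edgeR and DESeq2 on the reads, at -0.56 and -0.55, with the 6 libraries alone and with no filter. The cyclin-dependent kinase inhibitor Cdkn1a, 1 of the 2 cell cycle transcripts that were higher, rose from 1434, 1554 and 1377 to 3099, 3911 and 3652.

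The transcripts with the largest changes were taken by size alone, from those called whose libraries did not overlap and whose higher group averaged 50 or more. Beside those given above, the rises were led by Clic5, an intracellular chloride channel protein, at 4.88, 12.2 and 4.08 with ACs alone and at 570.2, 553 and 702 with the combined stimulus. Its mean in IFN-γ + ACs was 631, from which it did not differ past the threshold, and its log2 fold change over ACs alone was 6.37 ± 0.31 (limma, adjusted p = 1.1e-11). The complement inhibitor Serping1 rose from 4.88, 2.82 and 3.26 to 148, 171 and 196, and the channel Calhm6 from 3.25, 7.51 and 4.89 to 167, 160 and 207, and both had higher means in IFN-γ + ACs, 251 and 278, differences that were not called. Slamf1, a receptor of the SLAM family, was at 17.1, 11.3 and 13.1 and at 376, 401 and 495, above its means of 113 and 177 under the single stimuli. The mitochondrial transport gene Mgarp was at 5.69, 0 and 0 and at 109.8, 73.3 and 81.4, Ankrd37 at 2.44, 9.38 and 4.08 and at 134, 179.6 and 145, and Gm12185 at 12.2, 12.2 and 13.1 and at 326, 346 and 357. Clic5, Serping1, Calhm6, Mgarp and Ankrd37 had few reads in the ACs libraries, so the fitted size of these rises depends on the added count of 1. The log2 fold change of Mgarp was 5.54, and 6.46 without ACs replicate 1.

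On the other side, Bank1, a scaffold of B cell signalling that myeloid cells also express, fell from 305, 386 and 329 to 14.2, 29.3 and 11, by 4.26 on the log2 scale (limma, adjusted p = 6.7e-10). The B cell marker sum was also lower, at 1256 to 1456 and at 277 to 342, and its part in the fall of Bank1 was not tested. Spns3, a sphingolipid transporter relative, fell from 224, 163 and 251 to 9.98, 4.89 and 11, and Cbx8, a Polycomb component, from 342, 317 and 359 to 28.5, 18.3 and 6.9. Ifitm6, Abcg3, Slamf9, Gm48832 and Gm30054 completed the set, with log2 fold changes between -4.91 and -4.18 and combined libraries of 15.9 or less. For these low values the fitted size depends on the added count of 1, and on leaving out 1 library it moved furthest for 3 of them. Gm48832 was at -4.08 without combined replicate 1 and at -5.61 without combined replicate 2, Slamf9 at -3.47 without combined replicate 1 and Gm30054 at -3.71 without combined replicate 2. Among abundant transcripts, Srgn, the proteoglycan of granules, was at 29970.2, 30352 and 29919 and at 83629, 69596 and 90369, and Lgals9 fell from 11053, 8887 and 9602 to 6309, 6989.6 and 5259, by 0.67 on the log2 scale and by 0.56, under the fold threshold, without combined replicate 3.

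Transcripts above both single stimuli were ranked by the smaller of the 2 differences among those called higher in all 3 comparisons. Ptgs2, Ero1l and Egln3, described above, were among the first 6, as was the sphingomyelinase Smpd5, at 8.95, 9.38 and 2.45 with ACs alone, 119.7, 111 and 106 with the combined stimulus and means of 21.4 and 39.5 under IFN-γ and E. coli with ACs. Its log2 differences were 4.0, 2.34 and 1.53 (limma, adjusted p = 1.2e-07, 2.7e-04 and 0.00661). The other two, Gm10800 and Gm26870, rest on 1 library: Gm10800 was at 4.28, 316 and 8.28 and Gm26870 at 18.5, 472 and 42.8 in the combined libraries, the middle value being replicate 2, and without it neither was called, at log2 fold changes of 1.83 and 1.47. The 6 below both single stimuli were Slamf9, Jaml, the proteoglycan Dcn, the sphingomyelinase Smpd3, the GTPase Arl11 and the complement regulator Cd59a. Arl11 was at 196, 144 and 192 with ACs alone, 9.98, 8.55 and 16.6 with the combined stimulus and means of 52.7 and 63.8 under the single stimuli, with log2 differences of -2.1 and -2.39 (limma, adjusted p = 2.9e-05 and 3.8e-06).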

How the data were processed

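Poly(A) RNA was counted from transcript 3′ ends (CEL-Seq2, NextSeq 550) in 6 of the 18 libraries of the series, with 6 more as reference points. The authors deposited a signal table of normalized counts, that is, reads per gene divided by a DESeq2 size factor of each library, with nothing pooled. Per the submitters' processing notes, the tools named are Trim Galore, cutadapt 1.10, FastQC 0.11.5, TopHat2 2.1.0, Bowtie2 2.2.6, HTSeq 0.6.1 and DESeq2 1.26.0; the methods also describe a second pipeline, and which of them made the table is not given in the sources used here. Groups came from the labels, and every column mapped to a sample.

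From these values, log2(normalized count + 1) of the 10185 genes was fitted with limma 3.58.1 (R 4.3.3, lmFit and eBayes with a trend) over the 12 libraries of the 4 groups, which share 1 estimate of the spread. A gene was called at a Benjamini-Hochberg adjusted p under 0.05 with a fold of at least 1.5. Dividing by the value of 1 read gave whole reads, within 0.02 of a read, for 100% of values, and on these reads edgeR 4.0.16 called 1540 genes higher and 1763 lower and DESeq2 1.42.0 called 1554 and 1699. Depth was 3294760 to 4844424 reads, so that 3 reads, the limit a count of 0 allows, stood for 2.44 to 4.28 normalized counts; this covers counting error only. The fit was tested on simulated data.

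Genes were named by a rule: the 12 largest rises and falls among called genes whose libraries did not overlap and whose higher group averaged 50 or more, members of the gene and marker lists, the 6 transcripts farthest above and below both single stimuli, the 6 most abundant in each direction, and the nearest on each side of the mean of 10. The low-oxygen, mitochondrial, ribosomal, zinc finger, solute carrier and tRNA synthetase lists and the genes named from them were added after their values were seen. Some genes that count in their lists are not reported here. The comparison, the lists and the alternatives were chosen with earlier results of these data known. Gene IDs were paired with symbols for 54409 of 54446 genes through GENCODE vM21, and gene positions are given on GRCm38. Promoters came from RefSeq (GRCm38.p6). Same-numbered libraries of the 2 groups did not deviate together from their group means (correlations of -0.085 to 0.032), so the numbers were not used as pairs. Tables and figures were made with Python 3.11.15, pandas 2.3.3, numpy 2.4.6 and matplotlib 3.10.9.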

Additional observations from a re-analysis of the deposited data

How the results depend on the processing

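Against ACs alone, counts of calls under the alternatives tried were within 1.5 times those reported, except with a mean of at least 50, which left fewer genes to test and gave 1000 transcripts lower. An added count of 5 gave 1489 higher and 1792 lower, no filter 1513 and 1960, the 6 libraries alone 1482 and 1695, and array weights 1492 and 1769. Leaving out 1 library at a time gave 1397 to 1602 higher and 1409 to 1831 lower against ACs alone, 507 to 746 and 628 to 1013 against IFN-γ + ACs, and 852 to 1096 and 653 to 1180 against E. coli + ACs. Of 236 transcripts named, 16 lost their call under at least 1 alternative and none of the called turned direction. Pfkfb4, not called, ranged from -0.562 to 0.0198 on the log2 scale when 1 library was left out. Under upper quartile rescaling H2-K1, Gpi1, Cybb, Gata1, Mertk and Bnip3l fell under the fold threshold, at 0.45, 0.47, 0.55, 0.48, 0.47 and 0.48. Of the list medians under the alternatives, 84 moved by at least their spread between the combined libraries and 456 did not. The MHC class II median was 0.34 after that rescaling and 0.66 without ACs replicate 2. That of the bacterial receptors and adaptors was 0.2 after that rescaling and 0.59 with a mean of at least 50. The labels do not say whether the numbers of the libraries pair them. With the replicate number as a block the calls were 1493 and 1791, 623 and 852, and 998 and 978 in the 3 comparisons.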

Other observations

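Some further gene families were looked at after their values had been seen, as a description with no test of the family. Their counts stand beside the 14.6% of all transcripts tested that were higher and the 17.3% that were lower. Solute carriers, the membrane transporters of small molecules, had 30 of 157 transcripts tested higher and 37 lower, with a median log2 fold change of -0.04. Zinc finger proteins named by number had 14 of 214 higher and 31 lower, with a median of -0.16. Of 75 cytosolic ribosomal proteins 1 was higher and 2 were lower, and the share of all 80 listed in the counts was 2.87% to 3.12% with ACs alone and 2.41% to 2.58% with the combined stimulus. Of 19 cytosolic tRNA synthetases Wars was the 1 that was higher, by 3.13 ± 0.17 on the log2 scale (limma, adjusted p = 5.1e-11), and Vars the 1 that was lower, with -0.76 ± 0.21 (limma, adjusted p = 0.00784), a call lost at -0.56 without combined replicate 3. Of 16 mitochondrially encoded transcripts tested 1 was higher and 3 were lower, with a median of 0.19. All 37 listed took 10.9% to 11.9% of all counts with ACs alone and 6.05% to 7.38% with the combined stimulus, with 9.47%, 8.36% and 9.36% in IFN-γ + ACs and 7.1%, 7.77% and 6.86% in E. coli + ACs. The lower share lay with the 2 ribosomal RNAs described above, since the others took 4.31% to 4.9% with ACs alone and 4.2% to 5.43% with the combined stimulus.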
